A study of Mus musculus with 9 samples.

Results

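The subject here is a set of 10 genes for interleukin receptor chains: Il2ra (which encodes CD25), Il2rb, Il2rg, Il4ra, Il7r, Il9r, Il21r, Il5ra, Il6ra and Il10ra. They were chosen by symbol from a table of 24459 gene rows, each of the 10 symbols matched 1 row, and every match was kept. RNA-seq had been done on 9 libraries of mouse splenic B cells, 3 each of FO, BDL and MZ B cells. FO B cells are the recirculating cells of the follicle, sorted here as B220+IgMintCD21intCD23+CD93- cells with high IgD. BDL came from the same gate but had low or no IgD. MZ B cells line the marginal zone and were sorted as B220+IgMhiCD21hiCD23-CD93-. All mice were naive, untreated and 8 to 10 weeks old, with no transgene or deletion given. The labels name the strain C57/BL6, whereas the study's text names B10.PL for this experiment, and the files do not settle it. Splenocytes of 5 mice were pooled for each sort. The sample titles end in 1 of 3 dates, with 1 library of every subset per date. These dates are read here as sort days, and libraries of the same date carry the same replicate number. The titles of replicate 2 alone also begin with the word Splenic.

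Interleukin receptors are assembled from shared and private chains. The common gamma chain, encoded by Il2rg, pairs with the chains for IL-2, IL-4, IL-7, IL-9 and IL-21. The IL-5 receptor alpha chain pairs with the beta common chain Csf2rb, the IL-6 receptor with gp130 (Il6st), and the IL-10 receptor alpha chain with Il10rb. Binding of the ligand activates JAK kinases on the chains, which phosphorylate STAT factors, and SOCS proteins and CISH dampen the signal. In B cells IL-4 and IL-21 are known for their part in activation, class switching and differentiation, and IL-5 for the support of B1 cells.

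The deposited values are FPKM, in which the fragments of a gene are divided by its transcript length and by the mapped fragments of the library. Being per length, levels may be compared between genes. Per-library sums ranged from 446033 to 517208 FPKM. The table holds no counts, and from the steps between low values 1 fragment on a 1 kb transcript was worth about 0.0137 to 0.0186 FPKM. The B cell genes Cd79a and Ms4a1 were at 930.1 to 1762 and 401.6 to 852 FPKM over the 9 libraries, and neither passed a limma adjusted p of 0.05 in any comparison (adjusted p 0.0516 to 0.623). Of 6 MZ B cell genes, 6 were called higher in MZ than in FO, beside 5.54% of all rows tested. Among the 6 was Cr2 (CD21), which is itself a sorting marker. Libraries of the second sort stood apart in many genes of T, NK and myeloid cells, and BDL replicate 3 correlated least with the other libraries of its subset (mean r = 0.889). Results of the chains tested that rest on either are also given without them, and those of other genes are not.

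Differences are log2 fold changes on log2(FPKM + 0.1) from limma, with a 95% interval and a Benjamini-Hochberg adjusted p over the 11597 rows whose mean over the 9 libraries was at least 0.5 FPKM. "Called" below means an adjusted p under 0.05 together with a change of 2-fold or more. Of the 10 chains, 9 passed the minimum and Il7r did not. Nothing in the labels says that the pools held different mice on each day, so the p-values measure the spread between these libraries.

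Il2ra encodes the alpha chain of the high-affinity IL-2 receptor, well known on activated lymphocytes and regulatory T cells. It lies at chr2:11564419-11614818 (NCBIM37, plus strand). Its RNA was low in every library and highest in BDL. By flow cytometry, the study lists CD25 among surface proteins for which a rise in BDL was not borne out. FO B cells had 1.09, 1.07 and 0.92 FPKM for replicates 1 to 3. BDL had 2.05, 1.92 and 1.96 FPKM. MZ B cells had 1.54, 1.25 and 0.991 FPKM. The 3 BDL libraries were thus above each of the other 6, with the narrowest spread of the subsets (1.98 ± 0.064, SD, n = 3, against 1.03 ± 0.0943 in FO and 1.26 ± 0.273 in MZ). These levels correspond to about 235 to 631 fragments per library.

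Il2ra was 1.84-fold higher in BDL than in FO B cells (log2 0.88, 95% interval 0.51 to 1.25, limma adjusted p = 0.0163). It was 1.55-fold higher in BDL than in MZ B cells (log2 0.63, interval 0.26 to 1.0, adjusted p = 0.0204). Both differences were under 2-fold, so Il2ra was not called. FO and MZ B cells overlapped, and their difference did not pass the test (log2 -0.25, interval -0.62 to 0.12, adjusted p = 0.3). Over 20 other settings the BDL to FO difference kept its direction, with adjusted p between 0.00857 and 0.177, under 0.05 in 15. It was 0.0546 without FO replicate 1, 0.0753 without FO replicate 3, 0.0623 without BDL replicate 1, 0.0501 without BDL replicate 2, and 0.177 without the second sort. The BDL to MZ difference was under 0.05 in 16 of 20, and reached 0.0527 with the 6 compared libraries alone, 0.064 without BDL replicate 1, 0.0565 without MZ replicate 2 and 0.157 without the second sort.

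The Il2ra promoter is shown because CD25 is the chain for which the set is best known, and it holds a match to an NF-kB motif. It is RefSeq sequence on GRCm38.p6, a later build than that of the files, from 250 bases before to 50 bases after the start at chr2:11642542-11642841 (plus strand). Capitals mark the match.
Il2ra: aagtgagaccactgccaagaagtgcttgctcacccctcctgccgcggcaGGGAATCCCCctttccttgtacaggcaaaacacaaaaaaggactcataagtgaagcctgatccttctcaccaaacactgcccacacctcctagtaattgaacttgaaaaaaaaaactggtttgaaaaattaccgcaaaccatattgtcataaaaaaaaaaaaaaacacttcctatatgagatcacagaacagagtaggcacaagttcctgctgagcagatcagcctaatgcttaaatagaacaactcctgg
The letters searched on both strands were GGGA, any base, T, any base and CCC in a row for NF-kB, TTC and GAA with 3 bases between for STAT5, the same with 4 bases between for STAT6, and TGGGAA for RBPJ, and matches may overlap. Of 32851 promoters of that length, 1.1% hold the NF-kB letters, 8.3% the STAT5, 6.95% the STAT6 and 25.6% the RBPJ letters. Promoters were found for 8 of the 10 chains (not Il2rb or Il10ra). Il2ra held the NF-kB, Il7r the STAT5 and Il5ra the STAT6 match, each in a single copy, and Il6ra and Il2rg each held an RBPJ match. A match is a description of letters and not of binding.

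Markers of other cell types, among them regulatory T cells, were read beside it. The regulatory T cell factor Foxp3 was at 0.0738 to 0.125 FPKM in BDL at 0.101 to 0.197 FPKM in FO and at 0.0753 to 0.149 FPKM in MZ B cells. Ikzf2, of the same list, was highest in BDL within each sort, at 0.0222 to 0.0384 FPKM against 0.00526 to 0.0128 in FO and 0.0038 to 0.024 in MZ B cells. The summed Foxp3, Ctla4 and Ikzf2 level was 0.566 to 1.8 FPKM in FO, 1.01 to 5.66 in BDL and 1.44 to 8 in MZ B cells, most of it Ctla4. The 10 T cell markers summed to 2.27 to 4.82 FPKM over all libraries, and 0 of the 2 that could be tested with limma was called in any comparison (0 at an unadjusted p under 0.05). Of 7 B1 markers (Cd5, Bhlhe41, Zbtb32, Spn, Ctla4, Plscr1 and Itgam), 5 were called higher in BDL than FO, where 1.64% of all rows were, and 6 (Ctla4 added) with the sort day as a block, and the summed level of the 7 was 8.37 to 10.9 FPKM in FO, 23.1 to 29.6 in BDL and 20.9 to 36.3 in MZ B cells. Of the 7, 4 were highest in BDL within each sort, as Il2ra was (Cd5, Bhlhe41, Zbtb32 and Spn). Ctla4, Plscr1 and Itgam were instead highest in MZ within each sort, with Plscr1 at 11 to 18.3 FPKM against 3.81 to 5.32 in BDL. Transitional B cell genes (Cd93, Cd24a, Vpreb3, Myb) summed to 306 to 368 FPKM in FO, 474 to 702 in BDL and 364 to 464 in MZ B cells, with 2 of 4 called higher in BDL than FO. Most of that sum was Cd24a, which averaged 234 FPKM in FO, 399 in BDL and 374 in MZ B cells, and Vpreb3 (104, 128 and 21.6). Cd93 (3.9, 12.5 and 1.41) was lowest in MZ like Vpreb3, and Myb (1.24, 14.8 and 2.61) lowest in FO like Cd24a. Myeloid markers summed to 10.7 to 18.8, 23.9 to 33.8 and 14.6 to 26.7 FPKM, with Adgre1 and Ly6c2 called higher in BDL than FO (1.64% of all rows were). Of the 8, these 2 alone were highest in BDL within each sort, and Ly6c2 was at 14.4 to 17.3 FPKM there. Lyz2 averaged 1.43 FPKM in FO, 1.3 in BDL and 1.7 in MZ B cells, and Cd68 5.34, 4.55 and 9.78 FPKM. In bulk samples a larger share of cells with a transcript cannot be told apart from more of it per cell, and the part of these cells in the Il2ra difference was not tested.

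**Figure D1:**
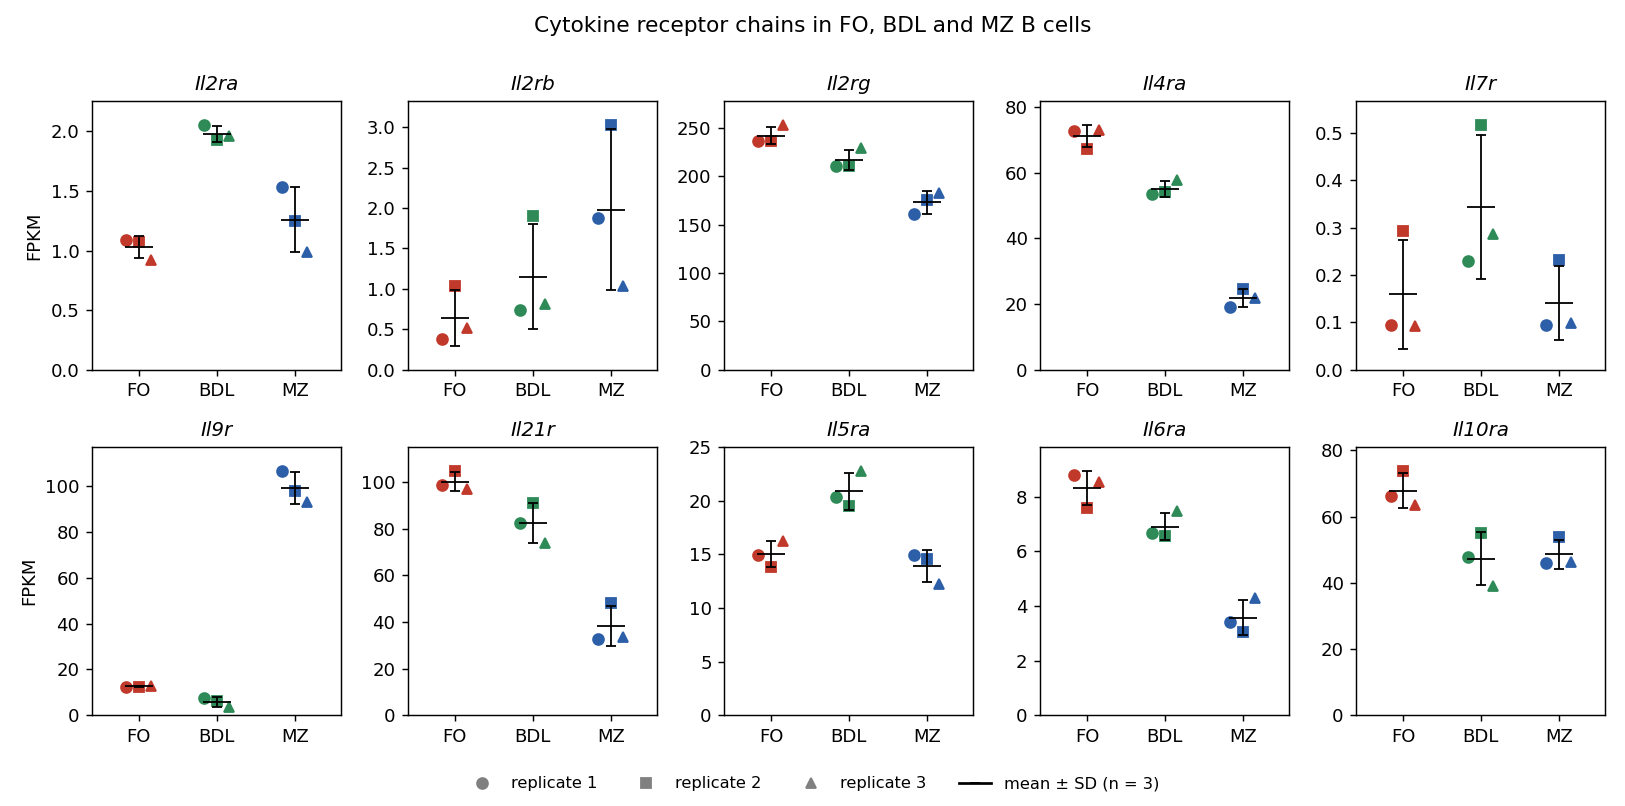
FPKM (linear axes from 0) of the 10 receptor chains in each of the 9 libraries, by subset, with symbols for the replicate and bars for the mean ± SD (n = 3). Il2ra and Il5ra are highest in the 3 BDL libraries, Il9r is at 92.9 to 106 FPKM in MZ and at most 12.8 FPKM in the other libraries, and Il2rg, Il4ra, Il21r and Il6ra descend from FO to BDL to MZ.

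Il2rb, the beta chain shared by the IL-2 and IL-15 receptors (chr15:78310983-78325496, minus strand), ran in another order. The FO libraries held 0.375, 1.04 and 0.512 FPKM. BDL had 0.742, 1.9 and 0.809 FPKM. The MZ libraries held 1.88, 3.02 and 1.04 FPKM. Within each sort the order was FO, BDL, MZ from low to high, but replicate 2 was the highest library of each subset and BDL overlapped both others. FO and MZ did not overlap, but FO replicate 2 (1.0385 FPKM) and MZ replicate 3 (1.0388 FPKM) all but met.

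Without a term for the sort, no Il2rb difference passed the test. The log2 change was 0.74 from FO to BDL (interval -0.40 to 1.87, adjusted p = 0.399), -0.73 for BDL over MZ (interval -1.87 to 0.40, adjusted p = 0.31) and -1.47 for FO over MZ (interval -2.60 to -0.33, limma adjusted p = 0.0605). With the sort day as a block, the 2.77-fold lower level in FO than in MZ was called (adjusted p = 0.00349), the BDL to MZ difference reached 0.0413, and BDL to FO stayed at 0.0662. FO to MZ was also called without FO replicate 2 (0.0414), BDL replicate 2 (0.0462), MZ replicate 3 (0.0355) or the second sort (0.0467).

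Il2rb was higher in the second sort than in the others by 1.11 on the log2 scale (SE 0.195, limma adjusted p = 0.0404, with the subset in the fit). Over all rows tested, 1.4% were higher and 2.27% lower in the second sort at that threshold. IL-2 receptor beta is abundant on NK and T cells, and Gzma and Nkg7 of the NK list were also higher in that sort (log2 1.71 and 1.92, adjusted p = 0.0265 and 0.0378). The 9 NK and innate lymphoid markers summed to 3.03 to 8.49 FPKM in FO, 3.74 to 7.79 in BDL and 7.59 to 13.6 in MZ B cells. Prf1 was the marker of that list called between subsets, at 5.39 to 8.85 FPKM in MZ and 0.573 to 1.86 FPKM in the other 6 libraries. Of the 9, Prf1 alone was highest in MZ within each sort. Klrb1c and Klrd1 were highest in BDL within each sort, and Klrd1 averaged 0.336 FPKM in FO, 1.03 in BDL and 0.614 in MZ B cells. The part of these cells in the Il2rb values was not tested.

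**Figure D2:**
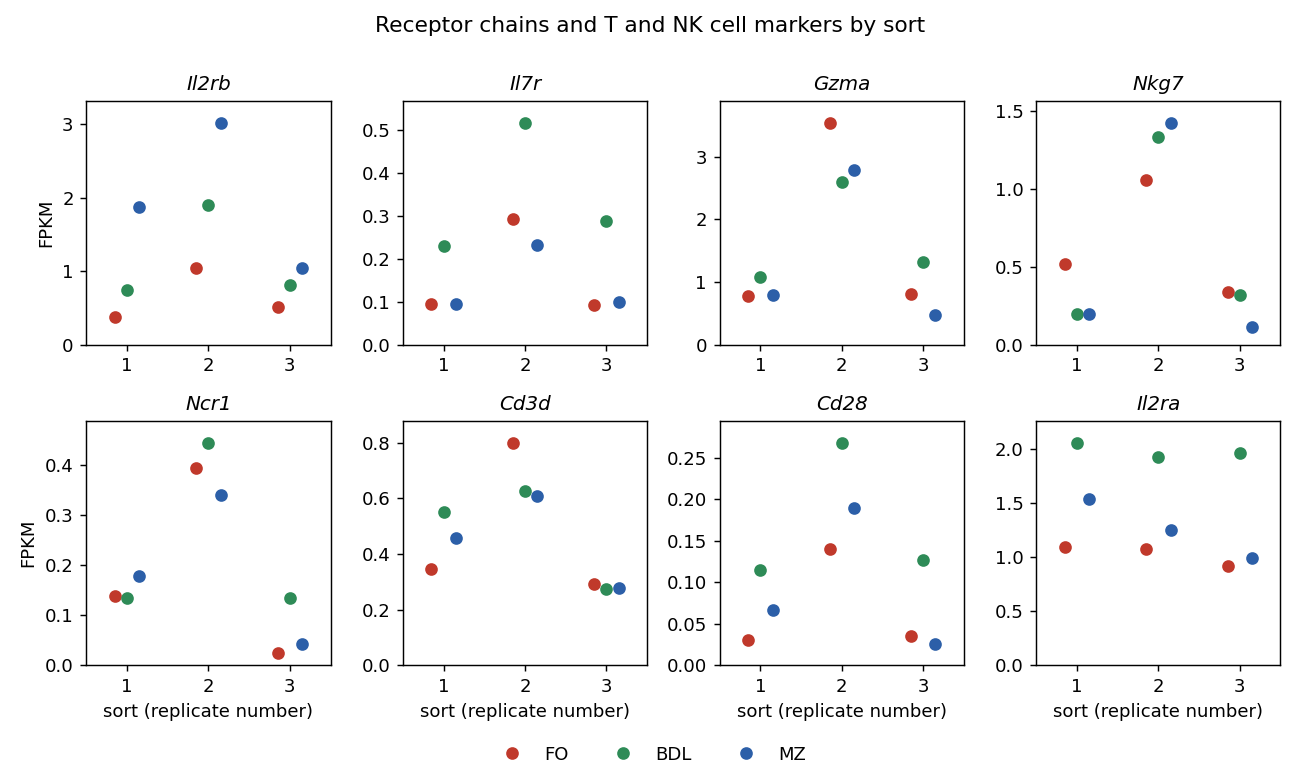
FPKM (linear axes from 0) of Il2rb, Il7r and Il2ra and of the T and NK cell markers Gzma, Nkg7, Ncr1, Cd3d and Cd28 against the sort day (replicate number), coloured by subset. Il2rb, Il7r, Gzma, Nkg7, Ncr1, Cd3d and Cd28 peak in sort 2 in each subset, and Il2ra does not.

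Il2rg, the common gamma chain (X chromosome, 98459717 to 98463594, minus strand), was the most abundant of the 10 chains in every subset. FO B cells had 237, 237 and 253 FPKM. BDL had 211, 211 and 230 FPKM. MZ B cells had 161, 175 and 183 FPKM. No 2 subsets overlapped, and the means were 242 ± 9.05, 217 ± 10.6 and 173 ± 11.4 FPKM (SD, n = 3). The differences were small: FO over MZ was log2 0.49 (interval 0.28 to 0.69, adjusted p = 0.00445, and 0.0858 without the second sort) and BDL over MZ log2 0.33 (interval 0.12 to 0.53, adjusted p = 0.0263). BDL and FO did not differ beyond the test (log2 -0.16, interval -0.36 to 0.05, adjusted p = 0.321). BDL over MZ was under 0.05 in 12 of 20 other settings (adjusted p 0.00909 to 0.186), and was lost with the 6 compared libraries alone (0.066) and without FO replicate 1 (0.0512), BDL replicate 1 (0.0605), 2 (0.0545) or 3 (0.0524), MZ replicate 1 (0.0991) or 2 (0.0672), or the second sort (0.186).

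Across the 9 libraries Il2rg was at 161 to 253 FPKM, Il2ra at 0.92 to 2.05 FPKM and Il2rb at 0.375 to 3.02 FPKM.

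Il4ra, the ligand-binding chain for IL-4, was abundant in FO B cells and lowest in MZ B cells. It was at 72.8, 67.3 and 73.1 FPKM in FO B cells. BDL had 53.4, 54.1 and 57.8 FPKM. The MZ libraries held 19.1, 24.6 and 21.9 FPKM. The subsets did not overlap, and BDL lay between the others but nearer to FO. Il4ra was called higher in FO than in MZ B cells (3.25-fold, log2 1.70, interval 1.47 to 1.94, adjusted p = 1.15e-05) and higher in BDL than in MZ B cells (2.53-fold, log2 1.34, interval 1.1 to 1.57, adjusted p = 4.7e-05). Both calls held in 20 of 20 other settings. BDL over FO was log2 -0.37 (interval -0.60 to -0.13) with adjusted p = 0.069, and 0.0455 with the sort day as a block.

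Il21r, the private chain for IL-21, a helper T cell product that drives B cells to differentiate, had the same order. FO B cells had 98.8, 105 and 96.9 FPKM. BDL had 82.5, 91.2 and 73.8 FPKM. MZ B cells had 32.9, 48.2 and 33.7 FPKM. It was called higher in FO than in MZ (2.65-fold, log2 1.41, interval 1.05 to 1.76, adjusted p = 0.00027) and in BDL than in MZ B cells (2.18-fold, log2 1.12, interval 0.77 to 1.48, adjusted p = 0.00109). Quantile normalization took the BDL over MZ change to 0.98, just under 2-fold. BDL and FO did not overlap, but their difference did not pass (log2 -0.28, interval -0.64 to 0.07, adjusted p = 0.299).

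Il4ra (chr7:132695785-132722986) and Il21r (chr7:132746943-132777084) are neighbours on the plus strand, 23956 bp apart with 0 protein-coding genes between them. Nsmce1, on the Il4ra side, was at 36 to 40.8 FPKM in FO, 43.3 to 56 in BDL and 11.8 to 14.9 in MZ B cells, and was also higher in FO than MZ (log2 1.54, limma adjusted p = 5.24e-05) and in BDL than MZ (log2 1.84, adjusted p = 2.67e-05). Gtf3c1, on the Il21r side, stayed between 13.6 and 16.1 FPKM in the 9 libraries, and neither of those differences passed (log2 -0.11 and -0.05, adjusted p = 0.292 and 0.651). Unlike both receptor genes, Nsmce1 had its highest values in BDL, although BDL over FO did not pass (log2 0.30, adjusted p = 0.187).

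Il7r, which binds IL-7 and marks lymphoid precursors and T cells, had the lowest mean of the 10 chains in each subset (chr15:9435916-9459631, minus strand). The FO libraries held 0.0949, 0.293 and 0.0917 FPKM. BDL had 0.229, 0.516 and 0.287 FPKM. The MZ libraries held 0.0941, 0.232 and 0.0994 FPKM. BDL was highest within each sort, but the subsets overlapped because all 3 libraries of the second sort were high. The lowest library held about 17 fragments and the highest 104. Fitted without a minimum, Il7r did not pass (BDL over FO log2 0.81, adjusted p = 0.278, and BDL over MZ log2 0.87, adjusted p = 0.151). With the sort day as a block as well, a choice made after seeing the data, those adjusted p were 0.0111 and 0.00235. Il7r without a minimum was higher in the second sort by log2 0.85 (adjusted p = 0.0286).

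Both T and precursor B cells carry Il7r. Of the 10 T cell markers, 3 were highest in BDL within each sort, as Il7r was (Cd3g, Cd8a and Cd28). Cd28 was at 0.0308, 0.14 and 0.0349 FPKM in FO, 0.115, 0.267 and 0.127 in BDL, and 0.0667, 0.19 and 0.0255 in MZ B cells. The other 7 were not: in the second sort Cd3d was at 0.797 FPKM in FO and 0.625 in BDL, Cd4 at 0.262 and 0.229 and Bcl11b at 0.096 and 0.0792, and Lat was lowest in BDL within each sort (0.467 to 1.08 FPKM, against 0.991 to 1.39 in FO). Of the 6 precursor markers, Vpreb3 was highest in BDL within each sort, at 92.2 to 112 FPKM in FO, 114 to 149.5 in BDL and 18.6 to 23.4 in MZ B cells. Vpreb1 was at 0 to 0.0584 FPKM in FO, 0.0895 to 0.147 in BDL and 0.0653 to 0.279 in MZ B cells. Rag1, Rag2 and Dntt were at or below 0.0883 FPKM in every library, and Igll1 was listed at 0 in every library. The part of T and precursor B cells in the Il7r values was not tested.

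Il9r, the private chain for IL-9, set MZ B cells apart from the rest more than any other of these chains (chr11:32087541-32100279, minus strand). FO B cells had 12.5, 12.4 and 12.8 FPKM. BDL had 7.44, 6.38 and 3.58 FPKM. MZ B cells had 106, 97.7 and 92.9 FPKM. No subsets overlapped, with MZ highest and BDL lowest. MZ exceeded BDL 17.5-fold (log2 for BDL over MZ -4.13, interval -4.66 to -3.60, adjusted p = 1.03e-05) and FO 7.81-fold (log2 for FO over MZ -2.97, interval -3.50 to -2.43, adjusted p = 4.21e-05). Both calls held in 20 of 20 other settings.

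BDL was also called lower than FO B cells for Il9r (2.25-fold, log2 -1.17, interval -1.70 to -0.64, limma adjusted p = 0.022). That call was less stable. BDL replicate 3, at 3.58 FPKM, lay below the other BDL libraries, and without it the change was log2 -0.86, under 2-fold, with adjusted p = 0.0034. The call was also lost with the 6 libraries of FO and BDL alone (0.0705), without FO replicate 1 (0.0837), 2 (0.068) or 3 (0.0842), and without the second sort (0.179). The direction was the same in all of them.

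The Il9r promoter is shown beside that of Il2ra because no other chain differed as much between subsets, and it held none of the 4 motifs. It is at chr11:32200230-32200529 (GRCm38.p6, minus strand).
Il9r: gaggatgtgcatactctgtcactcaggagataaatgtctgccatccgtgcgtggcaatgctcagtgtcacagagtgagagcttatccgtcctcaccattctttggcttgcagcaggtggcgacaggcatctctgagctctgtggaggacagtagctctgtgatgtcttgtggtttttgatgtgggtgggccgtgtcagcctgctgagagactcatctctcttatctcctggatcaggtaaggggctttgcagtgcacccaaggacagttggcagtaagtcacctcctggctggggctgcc
This says only that these letters are not in this window.

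Il5ra, the alpha chain for IL-5 (chr6:106660378-106695103, minus strand), was highest in BDL, like Il2ra, but at a higher level. It was at 15.0, 13.8 and 16.3 FPKM in FO B cells. BDL had 20.4, 19.5 and 22.8 FPKM. The MZ libraries held 15.0, 14.6 and 12.3 FPKM. The BDL libraries were above each of the other 6, while FO and MZ overlapped. BDL over MZ was log2 0.58 (interval 0.33 to 0.83, adjusted p = 0.00499, under 0.05 in 20 of 20 other settings). BDL over FO was log2 0.47 (interval 0.22 to 0.72, adjusted p = 0.036), and only 8 of 20 other settings kept it under 0.05. Upper quartile scaling gave 0.0791, quantile normalization 0.0837 and the 6 compared libraries alone 0.0523. Leaving out any 1 FO library (0.0767 to 0.123), any 1 BDL library (0.0624 to 0.0932), MZ replicate 1 (0.0547) or 2 (0.0542), or the second sort (0.215) also took it above 0.05. FO over MZ was log2 0.11 (interval -0.14 to 0.36, adjusted p = 0.51).

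The Il5ra promoter, at chr6:106748988-106749287 (GRCm38.p6, minus strand), is shown because Il5ra shares the BDL maximum with Il2ra. Capitals mark its STAT6 letters.
Il5ra: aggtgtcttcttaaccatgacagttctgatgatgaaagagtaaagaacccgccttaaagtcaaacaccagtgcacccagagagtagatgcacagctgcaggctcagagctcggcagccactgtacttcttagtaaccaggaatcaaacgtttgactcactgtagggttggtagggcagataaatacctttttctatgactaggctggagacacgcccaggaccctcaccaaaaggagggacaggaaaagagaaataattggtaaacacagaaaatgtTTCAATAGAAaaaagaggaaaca

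IL-5 also needs the beta common chain, and its gene ran in another order. Csf2rb was at 2.0, 1.93 and 2.03 FPKM in FO, 5.59, 5.47 and 4.0 in BDL, and 23.5, 24.1 and 23.1 in MZ B cells. It was called in the 3 comparisons, 2.43-fold higher in BDL than FO (log2 1.28, limma adjusted p = 0.00109) and 4.68-fold lower in BDL than MZ (log2 -2.23, adjusted p = 9.68e-06). Reads of its close paralog Csf2rb2 may be split between them. Csf2rb2 was listed at 0.45 ± 0.0418, 0.73 ± 0.127 and 2.84 ± 0.138 FPKM in FO, BDL and MZ (SD, n = 3). In FO B cells the private chain exceeded the shared chain, and in MZ B cells the shared chain exceeded the private chain. The B1 marker Cd5 was at 0.385 to 0.638 FPKM in FO, 1.63 to 2.45 in BDL and 1.51 to 2.18 in MZ B cells. Spn, of the same list, was at 2.64 to 3.11 FPKM in FO, 5.65 to 8.34 in BDL and 0.965 to 1.15 in MZ B cells. Cd5, Bhlhe41, Zbtb32 and Spn were highest in BDL within each sort, as Il5ra was, and Ctla4, Plscr1 and Itgam in MZ. The part of B1 cells in the Il5ra values was not tested.

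Il6ra, the ligand-binding chain for IL-6 (chr3:89673246-89717084, minus strand), descended from FO to MZ. FO B cells had 8.79, 7.6 and 8.53 FPKM. BDL had 6.67, 6.56 and 7.46 FPKM. MZ B cells had 3.41, 3.03 and 4.29 FPKM. No subsets overlapped, though the highest BDL library (7.46) and the lowest FO library (7.6) were close. Il6ra was called higher in FO than in MZ (2.3-fold, log2 1.2, interval 0.91 to 1.5, adjusted p = 0.000251). BDL over MZ was log2 0.94 (interval 0.64 to 1.24, adjusted p = 0.00115), just under 2-fold, and reached it with quantile normalization (1.01) and without MZ replicate 3 (1.07). BDL over FO did not pass (log2 -0.26, interval -0.56 to 0.03, adjusted p = 0.257).

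Its signalling partner gp130 ran the other way. Il6st was at 2.56, 4.82 and 2.63 FPKM in FO, 3.64, 4.87 and 2.91 in BDL, and 6.47, 10.9 and 5.48 in MZ B cells. It was called 2.24-fold lower in FO than in MZ (log2 -1.16, adjusted p = 0.032), and the second sort was highest in each subset. BDL over MZ was log2 -0.95 with adjusted p = 0.0652, and 0.00091 with the sort day as a block.

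Il10ra, the ligand-binding chain for IL-10 (chr9:45061922-45077232, minus strand), was higher in FO than in the other subsets, which were alike in level. The FO libraries held 66.2, 73.7 and 63.5 FPKM. BDL had 47.8, 55 and 39.2 FPKM. The MZ libraries held 46, 53.7 and 46.2 FPKM. The FO libraries were above the other 6, and BDL and MZ overlapped fully (log2 -0.05, interval -0.36 to 0.26, adjusted p = 0.815). FO over MZ was log2 0.48 (interval 0.17 to 0.79, adjusted p = 0.0311, under 0.05 in 13 of 20 other settings). It was lost with quantile normalization (0.0765), without any 1 FO library (0.0627 to 0.0992), without MZ replicate 1 (0.101) or 3 (0.0798), and without the second sort (0.0833). BDL over FO was log2 -0.53 (interval -0.84 to -0.22, adjusted p = 0.0521), and 0.0097 with the sort day as a block. BDL replicate 3 had the lowest Il10ra of the 9 libraries.

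The partner chain Il10rb was at 44.7 ± 2.43, 37.5 ± 5.95 and 35.7 ± 5.45 FPKM in FO, BDL and MZ B cells (SD, n = 3) and passed in no comparison (adjusted p 0.13 to 0.76), although FO over MZ did with the sort day as a block (log2 0.34, adjusted p = 0.0164). The ligand gene Il10 was highest in MZ B cells. It was at 0.144, 0.165 and 0.145 FPKM in FO, 0.885, 1.15 and 0.543 in BDL, and 18, 22 and 16.5 in MZ B cells. Il10 was called in the 3 comparisons, with BDL over FO at log2 1.88 (adjusted p = 0.00322) and BDL over MZ at log2 -4.35 (adjusted p = 8.77e-06).

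**Figure D3:**
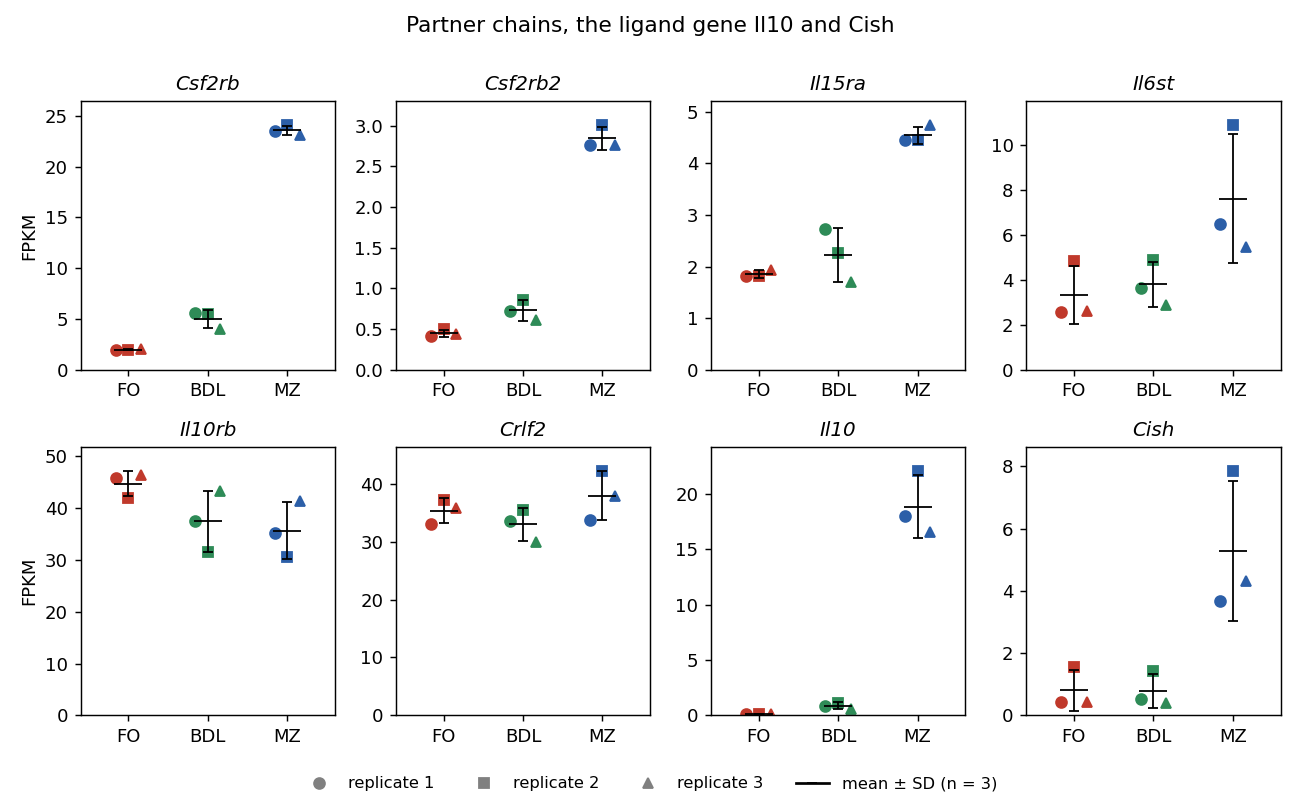
FPKM (linear axes from 0) of the partner chains Csf2rb, Csf2rb2, Il15ra, Il6st, Il10rb and Crlf2, the ligand gene Il10 and the inhibitor Cish by subset, with symbols for the replicate and bars for the mean ± SD (n = 3). Csf2rb, Csf2rb2, Il15ra, Il10 and Cish have their 3 highest libraries in MZ B cells, and Il10rb and Crlf2 overlap between subsets.

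By level, the order of the 10 chains in FO B cells was Il2rg (242 FPKM), Il21r (100.2), Il4ra (71.1), Il10ra (67.8), Il5ra (15.0), Il9r (12.6), Il6ra (8.31), Il2ra (1.03), Il2rb (0.642) and Il7r (0.16). In FO B cells Il4ra and Il10ra overlapped, as did Il2ra and Il2rb. In BDL the order changed by Il6ra (6.9 FPKM) passing Il9r (5.8), which overlapped, as did Il4ra (55.1) and Il10ra (47.3). In MZ B cells Il9r (99 FPKM) moved to second place behind Il2rg (173), ahead of Il10ra (48.6), Il21r (38.3), Il4ra (21.9), Il5ra (13.9), Il6ra (3.58), Il2rb (1.98), Il2ra (1.26) and Il7r (0.142). There Il2rb and Il2ra overlapped, as did Il10ra and Il21r.

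Counted together, 1 of the 9 chains tested was called between BDL and FO, Il9r, lower in BDL. The background was 1.64% of rows called higher and 0.267% called lower in BDL. At an adjusted p under 0.05 alone, 2 chains were higher in BDL (Il2ra and Il5ra) and 1 was lower, where 6.04% of rows were higher and 1.68% lower. Between BDL and MZ, 2 chains were called higher in BDL (Il4ra and Il21r) and 1 lower (Il9r), beside 3.47% and 4.34% of all rows. At the adjusted p alone those counts were 6 and 1, beside 16.5% and 11.6%. Between FO and MZ, 3 chains were called higher in FO (Il4ra, Il21r and Il6ra) and 1 lower (Il9r), beside 3.39% and 5.54%, and at the adjusted p alone 5 and 1, beside 12.8% and 14.3%. The median log2 change of the 9 chains was -0.26 for BDL over FO, 0.58 for BDL over MZ and 0.48 for FO over MZ, against 0.05, 0.06 and 0.01 over all rows tested. The 3 comparisons share libraries and are not independent.

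**Figure D4:**
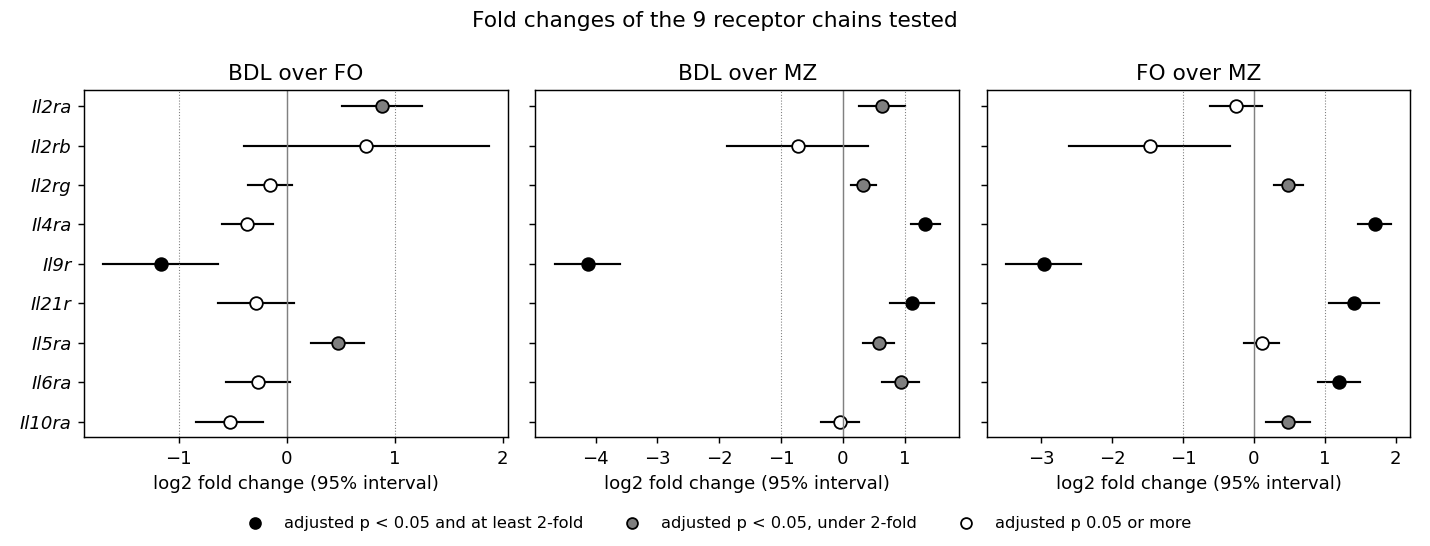
Log2 fold change with its 95% interval for the 9 chains tested, in the comparisons BDL over FO, BDL over MZ and FO over MZ (dotted lines at 2-fold). Il9r is filled as called in each panel, Il2ra and Il5ra lie to the right in both panels that involve BDL, and Il2rb has the widest intervals.

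Some chains varied with the sort day. Il2rb, Il7r, Il21r and Il10ra had their highest value in the second sort in all 3 subsets, a pattern that 7.77% of the rows tested showed. Of these, Il21r (log2 0.28, adjusted p = 0.14) and Il10ra (log2 0.25, adjusted p = 0.101) did not pass a test of the second sort against the others. Il6ra had its lowest value in the second sort in each subset and did not pass either (log2 -0.21, adjusted p = 0.182). For Il2ra the log2 difference was 0.02 (adjusted p = 0.941). The same pattern was held by 6 of 10 T cell, 7 of 9 NK and innate lymphoid and 6 of 8 myeloid markers. Of these lists only 2, 4 and 7 markers passed the minimum, and Il7r did not. The 7.77% covers only rows that passed it.

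A wider list of 47 cytokine receptor chains was read beside the set, of which 23 passed the minimum. Between BDL and FO, 1 was called (Csf2rb, higher in BDL) and 0 were called lower by limma (0 at an unadjusted p under 0.05), with a median log2 change of -0.08, where 1.64% and 0.267% of all rows were called. Between BDL and MZ, limma called 0 higher (4 were at an unadjusted p under 0.05) and 3 lower (Csf2rb, Csf2rb2 and Il15ra), beside 3.47% and 4.34% of all rows. Between FO and MZ, 1 was called higher and 5 lower, beside 3.39% and 5.54%. The chain higher in FO was Il27ra, for IL-27, at 32.9 ± 2.98 FPKM in FO, 28.3 ± 7.23 in BDL and 15.4 ± 1.94 in MZ B cells (SD, n = 3; log2 1.1, limma adjusted p = 0.00384). Those lower in FO were the 3 named above, Il6st and Il12rb1, the shared chain of the IL-12 and IL-23 receptors, at 0.446 to 0.592 FPKM in FO and 1.67 to 1.87 in MZ B cells (log2 -1.62, adjusted p = 0.000365).

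Il15ra, which presents IL-15 to the beta and gamma chains, was at 1.81, 1.81 and 1.94 FPKM in FO, 2.73, 2.25 and 1.69 in BDL, and 4.45, 4.45 and 4.73 in MZ B cells. It was 2.03-fold lower in BDL than MZ (log2 -1.02, adjusted p = 0.00176), and BDL overlapped FO. Crlf2, which joins Il7r in the receptor for thymic stromal lymphopoietin, was at 35.3 ± 2.16, 33 ± 2.82 and 37.9 ± 4.23 FPKM (SD, n = 3) and passed in no comparison (adjusted p 0.206 to 0.58). Il13ra1, a partner of Il4ra outside the lymphoid lineage, was at 0.0262 to 0.1 FPKM and untested, and Il13ra2 was listed at 0.

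Of 11 ligand genes, Il10 alone passed the minimum, and Il2, Il9 and Tslp were listed at 0 in all 9 libraries. Il15 was below the minimum and untested, at 0.133 to 0.169 FPKM in FO, 0.34 to 0.455 in BDL and 0.737 to 1.11 in MZ B cells, without overlap.

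All 11 JAK and STAT genes were tested. Between BDL and FO 0 were called by limma (1 was at an unadjusted p under 0.05), and Stat4 was lower in BDL at the adjusted p alone (log2 -0.73, limma adjusted p = 0.0236). Stat4, known for signals of IL-12, was at 19.4, 23.6 and 20.7 FPKM in FO, 10.9, 12.9 and 14.6 in BDL, and 7.06, 8.81 and 9.58 in MZ B cells. It was the JAK or STAT gene called between FO and MZ (2.5-fold, log2 1.32, adjusted p = 0.000298). At the adjusted p alone, the 6 genes Jak1, Stat3, Stat4, Stat5a, Stat5b and Stat6 were higher than in MZ in both other subsets, where 16.5% of all rows were higher in BDL than MZ and 12.8% higher in FO than MZ. Jak3, the kinase that binds the common gamma chain, was at 26.4 ± 1.21, 20.4 ± 5.05 and 29.1 ± 3.73 FPKM (SD, n = 3) and passed in no comparison, although BDL over MZ did with the sort day as a block (log2 -0.54, adjusted p = 0.0281).

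Of 17 inhibitor genes 16 were tested, and 1 was called lower in each comparison (lower in BDL than FO, in BDL than MZ and in FO than MZ), where 0.267%, 4.34% and 5.54% of all rows were. Socs3, an inhibitor of gp130 signalling, was at 14.2, 23.3 and 18.8 FPKM in FO, 6.37, 9.4 and 7.28 in BDL, and 7.49, 13.1 and 10.4 in MZ B cells. It was called lower in BDL than FO (2.41-fold, log2 -1.27, limma adjusted p = 0.022). BDL over MZ, at log2 -0.40 (adjusted p = 0.273), passed only with the sort day as a block (0.00525). Cish, induced by STAT5, was at 0.413, 1.56 and 0.44 FPKM in FO, 0.533, 1.42 and 0.406 in BDL, and 3.69, 7.85 and 4.32 in MZ B cells. It was called lower than MZ in both other subsets (log2 -2.70 for BDL and -2.73 for FO, adjusted p = 0.00918 and 0.00855). Socs3 and Cish were both highest in the second sort in each subset (log2 0.51 and 1.35 over the other sorts, limma adjusted p = 0.0197 for each).

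Of 15 known target genes of cytokine signalling 14 were tested, with 1 higher and 1 lower called in BDL than FO, 3 and 3 in BDL than MZ, and 1 and 3 in FO than MZ. Over all rows those shares were 1.64% and 0.267%, 3.47% and 4.34%, and 3.39% and 5.54%. The list holds Cish and Socs3 again. Ccnd2, a D-type cyclin, was at 4.7, 6.32 and 4.78 FPKM in FO, 24.3, 24.6 and 24.6 in BDL, and 10.2, 12.1 and 9.23 in MZ B cells, and was called higher in BDL than FO (4.63-fold, log2 2.21, limma adjusted p = 0.000136) and MZ (2.33-fold, log2 1.22, adjusted p = 0.000326). Bcl2l1, which encodes the survival protein Bcl-xL, was higher in BDL (1.75 to 2.18 FPKM) than in MZ B cells (0.545 to 0.984 FPKM; log2 1.31, adjusted p = 0.00189). The kinase gene Pim1 and the growth regulator Myc were called lower than MZ in both other subsets. Pim1 was at 74.6 to 110 FPKM in FO, 70.4 to 100 in BDL and 231 to 318 in MZ B cells, and Myc at 116 to 141, 102 to 109 and 380 to 518 FPKM. Fcer2a, the remaining call, encodes the sorting marker CD23.

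**Figure D5:**
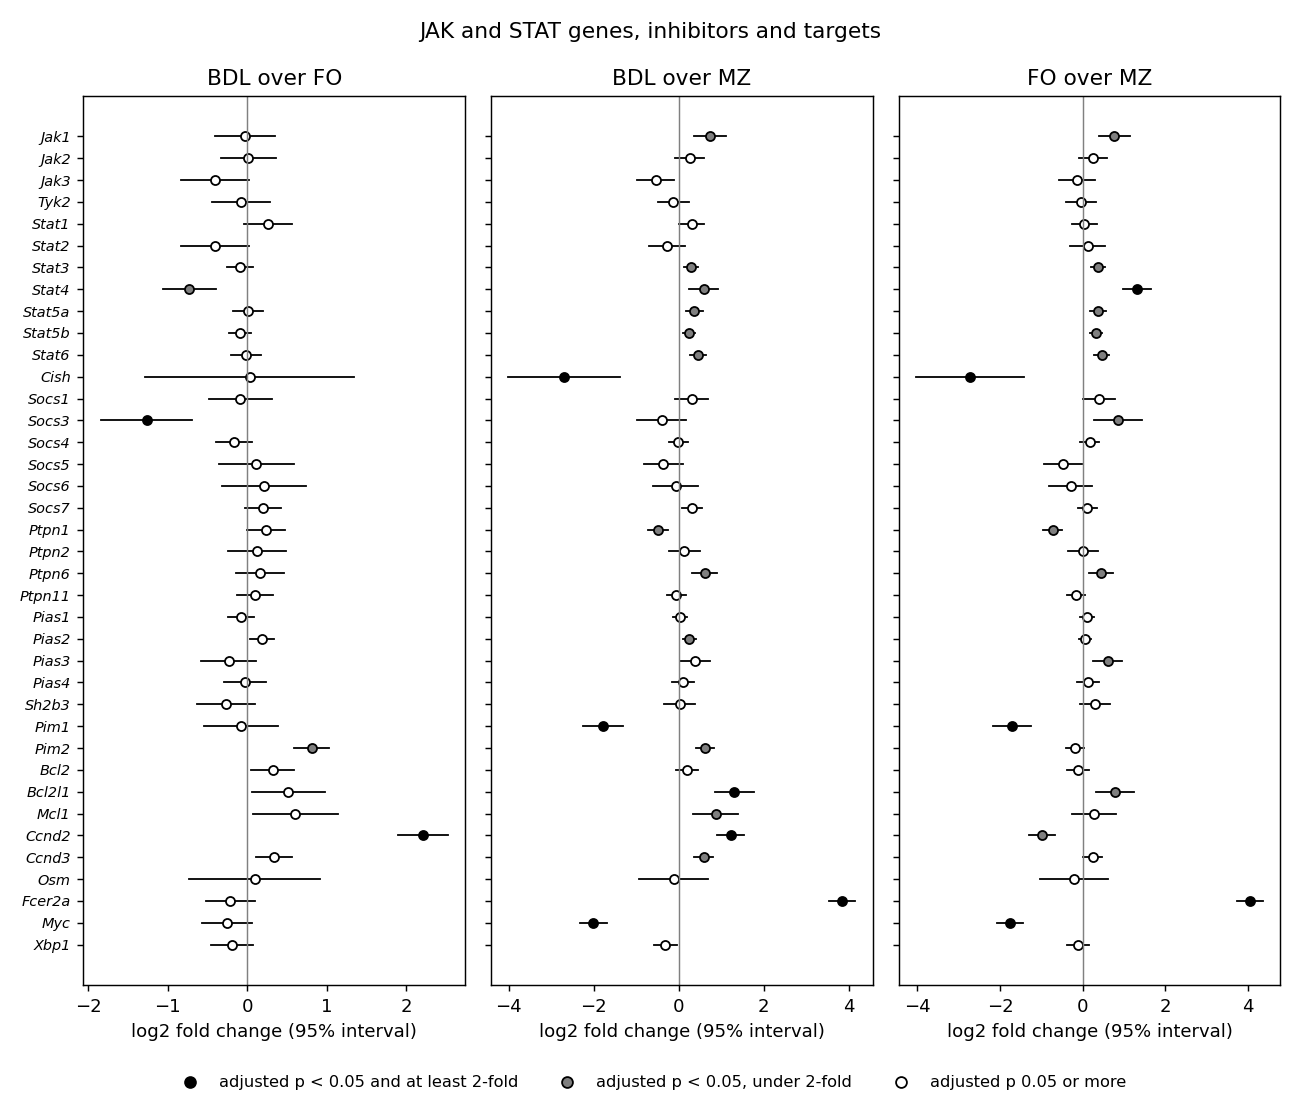
Log2 fold change with its 95% interval of the JAK, STAT, inhibitor and target genes that passed the minimum, in the 3 comparisons. Between BDL and FO the called genes are Socs3 (lower in BDL) and Ccnd2 (higher in BDL), and Cish, Pim1 and Myc lie far to the left in both comparisons with MZ.

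For Il2ra and each chain called in a comparison, the 3 rows tested with the highest Pearson correlation over the 9 libraries on the log2 scale were listed, as a description. The libraries share subset and sort day, which bears on each r. For Il2ra they were Hbb-b1 (r = 0.981), Serf1 (0.979) and Wls (0.975). Hbb-b1 encodes a beta globin of red cells and was at 1.19 to 2.02 FPKM in FO, 5.13 to 6.42 in BDL and 1.47 to 2.97 in MZ B cells, and reads of its near copies could be split. Of 7 rows of red cell and platelet genes, Hbb-b1 alone was highest in BDL within each sort. The alpha globin gene Hba-a1 was at 0.415 to 1.85 FPKM in FO, 1.08 to 1.57 in BDL and 1.43 to 2.34 in MZ B cells. For Il4ra they were Rbpms (0.997), Itgb7 (0.995) and Cacna1i (0.994). Itgb7, an integrin beta chain, was at 73 to 88.8 FPKM in FO, 43 to 53.8 in BDL and 10 to 12.1 in MZ B cells. For Il21r they were B3gnt5 (0.99), Xdh (0.985) and Fgd3 (0.985), and for Il6ra Pcnt (0.992), Mcu (0.991) and Lfng (0.99). For Il9r they were Rhbdf1 (0.999), Ptpdc1 (0.994) and Sfxn5 (0.994). Rhbdf1 was at 2.56 to 3 FPKM in FO, 0.94 to 1.88 in BDL and 17.1 to 19.3 in MZ B cells.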

How the data were processed

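RNA of FACS-sorted FO, BDL and MZ B cells was sequenced in 9 libraries. The authors mapped reads to mm9 with Tophat 2.1.0 and computed and deposited FPKM per gene with Cufflinks, whose version and annotation are not given in the sources used here. By the labels reads were single-end and without strand information, by the methods the kit was stranded, so overlapping genes on opposite strands may share reads. The authors' own comparison table (Cuffdiff fold changes and p-values) was not used. Groups and dates came from the sample titles, the dates were read as sort days, and same-day libraries carry 1 number.

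Deposited FPKM were not rescaled and were tested as log2(FPKM + 0.1). Rows averaging 0.5 FPKM or more (11597) were fitted with limma 3.58.1 in R 4.3.3 (trend on, subset as the only term, 9 libraries), since the study names no other term, with Benjamini-Hochberg adjustment. The exact permutation test of 3 against 3 cannot go below 0.1. Same-day libraries share a date in their titles, and their deviations correlated by -0.062 to 0.147 (BDL and FO), 0.1 to 0.244 (BDL and MZ) and 0.008 to 0.024 (FO and MZ). The block is therefore given where it changes a call. Python 3.11.15 with matplotlib 3.10.9 made the figures.

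Alternatives were no minimum or 1 FPKM, 0.01 or 1 as the pseudocount, the 6 compared libraries, the sort day as a block, other scalings and variance settings, no fold minimum, and each library left out. Leaving out the second sort, the block without a minimum and the test of the second sort were chosen after the data were seen. The members, gene lists and the rule for named genes (all 10 chains, their partner chains, listed genes called in a comparison and the 3 rows most like each chain called and Il2ra) were written with earlier results of these data known. Gene positions are from GENCODE M1 on NCBIM37 (mm9), and fragment numbers are estimates from low-value steps and the longest transcript. A listed marker is not reported here.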

Additional observations from a re-analysis of the deposited data

How the results depend on the processing

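Over 27 differences (9 chains in 3 comparisons) and 20 alternatives each, 518 of 540 values kept their side of the threshold of adjusted p under 0.05 and 2-fold. Of the rest, 7 fell below it and 15 rose above it, and 0 calls reversed. The sign was kept throughout except for Il10ra between BDL and MZ, which lay near no change (log2 -0.05). It turned positive without BDL replicate 3 (log2 0.08) and without MZ replicate 2 (log2 0.02). Dropping the 2-fold minimum, which by construction admits smaller changes, took the chains called from 1 to 3 (BDL and FO) and from 3 to 7 (BDL and MZ), and all genes called from 221 to 896, from 905 to 3255 and from 1035 to 3141 (BDL and FO, BDL and MZ, FO and MZ). Adding 1 in place of 0.1, which shrinks changes of low genes, gave 94 genes for BDL and FO and 674 for FO and MZ. With the 6 libraries of BDL and FO alone 0 chains were called, and the cause was not tested. Leaving out 1 library at a time gave 0 to 1, 3 to 4 and 4 to 5 chains and 167 to 220, 880 to 969 and 982 to 1074 genes. The 0 chains for BDL and FO arose without FO replicate 1, 2 or 3 or without BDL replicate 3. Without the second sort, with fewer samples, 91 genes and 0 chains were called for BDL and FO, and 839 genes for BDL and MZ. With the replicate block on the sort day, Il2rb was called between FO and MZ (adjusted p = 0.00349), and Il4ra and Il10ra between BDL and FO and Il2rb between BDL and MZ moved under 0.05 without reaching 2-fold. The pairing changed no other call of a chain. The table gives no counts, and low values, as for Il7r (an estimated 17 to 104 fragments per library), are less precise than higher ones.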
